A study of Mus musculus with 12 samples.

Results

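The hippocampus and the cerebellum of male Balb/c mice aged 10 weeks were compared on all probes of an Arraystar mouse array for long noncoding and messenger RNAs. The comparison was chosen by the tissue labels and covers 6 of the 12 samples of the series, 3 of each region. The other 6 samples were olfactory bulb and hypothalamus. The labels name no allele and no agent for any sample, so every group is this strain without a named treatment. The regions were dissected under a stereomicroscope, and each sample was 1 scan of an array labelled in a single colour, Cy3.

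The hippocampus is built mainly of glutamatergic pyramidal and dentate granule neurons and serves the formation of memories. The cerebellum, which adjusts movement, is dominated by small glutamatergic granule neurons whose output converges on the large GABAergic Purkinje cells. Long noncoding RNAs are transcripts with no long open reading frame, and those that lie between protein-coding genes are called lincRNAs. As a class they are known for low levels and for expression restricted to certain tissues. In dissected tissue, fewer cells of a type and less RNA per cell cannot be told apart.

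Replicates 1 and 3 of each region were nearly identical scans. Over 15195 bright probes the SD of their log2 difference was 0.0278 in the hippocampus and 0.0262 in the cerebellum, below the smallest spread of a probe's copies within a scan, 0.0308. Scans of replicate 2 differed from the others of their region with an SD of 0.354 to 0.447. Replicates 1 and 3 were therefore averaged and counted as 1 sample, called array 1 here, and replicate 2 is array 2. This left 2 arrays of each region, 4 of the 10 arrays in the series. Of the 60915 probes, 87.9% to 90.8% were well above background on a hippocampus scan and 91.8% to 92.6% on a cerebellum scan, and no spot was saturated. The series text names 3 mice, but the labels do not tie arrays to animals, so a p-value measures only how far these arrays spread, which may be technical. Hippocampus arrays always lay at one position of a slide and cerebellum arrays at another, so that the position on the slide cannot be told apart from the region. The files pair 15 probes with a gene through an accession and the rest with the array's own IDs or lincRNA names. None of 118 marker and pathway genes in 14 lists had a named probe (0 of 118), so the dissection could not be checked against defining markers, and most probes are given by ID.

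Levels are processed signals on the log2 scale, set relative to the 75th percentile of the scan, which is 0. Differences are hippocampus minus cerebellum from limma, with 1 mean per region and a spread shared by the 4 regions. A probe was called different at a Benjamini-Hochberg adjusted p under 0.05 and an at least 2-fold difference. Of 56573 probes tested, 5778 (10.2%) were called, 2897 (5.12%) higher in the hippocampus and 2881 (5.09%) higher in the cerebellum. The numbers called were thus nearly equal, but the larger differences more often favoured the hippocampus. Fitted differences of at least 4-fold numbered 1108 higher in the hippocampus and 755 higher in the cerebellum, and of at least 8-fold 477 against 228. These counts hold probes that were not above background in the lower region, whose fitted size is not a measured one. Among called probes well above background on all 6 scans, 2597 were higher in the hippocampus and 2556 in the cerebellum. In that set at least 4-fold differences numbered 915 against 593, at least 8-fold 368 against 160, at least 32-fold 67 against 29 and at least 128-fold 9 against 6. The median size of a called difference was 1.71 on the log2 scale in the hippocampus direction and 1.495 in the cerebellum direction. Over all probes tested the median difference was -0.02 and the median absolute difference 0.33, and 1% of probes lay below -2.29 and 1% above 2.79.

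**Figure D1:**
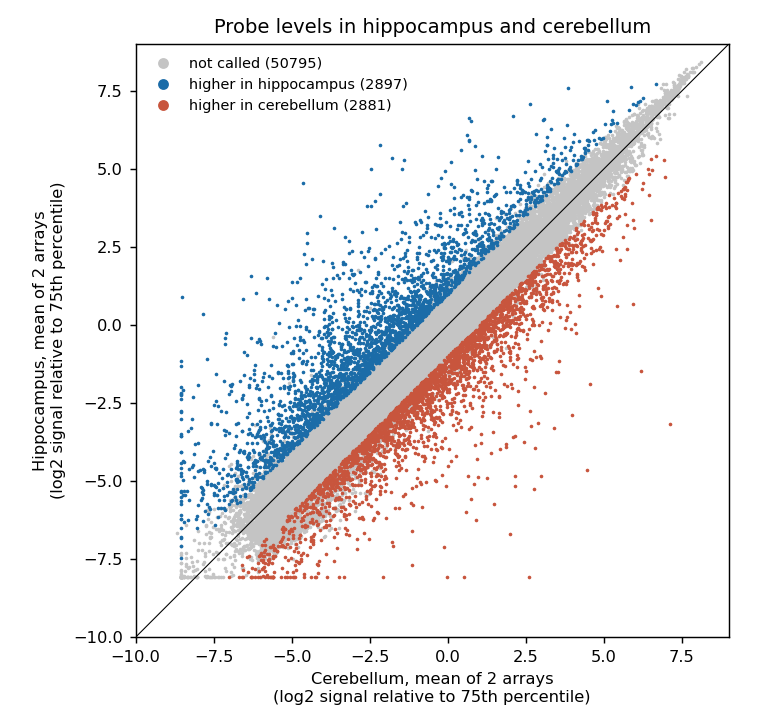
Mean level of each tested probe in the cerebellum (x axis) and in the hippocampus (y axis), 2 arrays each, in log2 signal relative to the scan's 75th percentile; points are probes, coloured by call. The 2897 probes higher in the hippocampus lie above the diagonal and the 2881 higher in the cerebellum below it. The straight edges of points at the far left and the bottom are probes at the lowest signal that the scanner software wrote.

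By the adjusted p alone, 13167 probes (23.3%) passed, 6026 (10.7%) with the higher level in the hippocampus and 7141 (12.6%) with the higher level in the cerebellum. With the replicate number as a block, 23438 probes (41.4%) passed the adjusted p. With the block, 3179 probes higher in the hippocampus and 3137 higher in the cerebellum were called (11.2% together), and 2876 and 2874 of these were also called without it.

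The largest difference among probes measured above background in both regions was at ASMM10P011114. Its levels were -3.004 and -3.31 on the hippocampus arrays and 7.15 and 7.07 on the cerebellum arrays. The difference was -10.26 (SE 0.15, adjusted p = 3.15e-08 by limma). Its mean was -2.80 in the olfactory bulb and -2.18 in the hypothalamus, so the cerebellum arrays alone were bright, and among the called array-design probes higher in the cerebellum it was also the brightest there. ASMM10P028337 had the same pattern, with -4.69 and -4.60 in the hippocampus against 4.50 and 4.44 in the cerebellum (difference -9.11, SE 0.10, adjusted p = 1.47e-08). Its mean level in the other regions was -3.67 and -2.80.

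The other probes of this kind differed in how the olfactory bulb and the hypothalamus behaved. ASMM10P026710 was at -1.38 and -1.56 in the hippocampus and at 6.27 and 6.09 in the cerebellum, and the other regions lay near the hippocampus, at -1.01 and -0.30. ASMM10P022843 was at -4.95 and -5.36 in the hippocampus and 2.304 and 1.98 in the cerebellum, again with the other regions low, at -4.90 and -4.04. In contrast, ASMM10P030753 (difference -8.04) had intermediate means of 0.24 in the olfactory bulb and -0.72 in the hypothalamus. ASMM10P047242 (difference -7.83) was low in the olfactory bulb, at -3.77, and intermediate in the hypothalamus, at 0.20. ASMM10P007843 and ASMM10P004942, with differences of -7.22 and -6.96, were above background on 2 of the 3 hippocampus scans only. The hippocampus arrays of ASMM10P004942 lay far apart, at -3.75 and -5.89, yet both were far below its cerebellum arrays at 2.32 and 1.96 (SE 0.68).

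In the other direction ASMM10P049924 differed most, with 4.67 and 4.46 on the hippocampus arrays and -4.51 and -4.75 on the cerebellum arrays. The difference was 9.19 (SE 0.13, adjusted p = 3.04e-08 by limma), and the olfactory bulb and the hypothalamus lay between, at -1.75 and -1.23. ASMM10P019065 was of another kind. It was at 5.86 and 5.64 in the hippocampus and -2.0001 and -2.34 in the cerebellum (difference 7.92, SE 0.15), while the olfactory bulb, at 5.81, and the hypothalamus, at 5.30, were near the hippocampus. For this probe the cerebellum was thus the one region that was low.

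ASMM10P010550 read 3.53 and 3.48 in the hippocampus and -4.10 and -4.12 in the cerebellum, a difference of 7.61, with the hypothalamus at 2.303 and the olfactory bulb at 0.29. ASMM10P033564 read 3.02 and 2.89 against -4.59 and -4.44, a difference of 7.47. ASMM10P040502 read 5.06 and 4.92 against -2.39 and -2.52, a difference of 7.45. In these probes the spread between the arrays of a region was small beside the difference between regions. ASMM10P025971 differed by 7.30 and ASMM10P040419 by 7.14. The latter was low in the olfactory bulb and the hypothalamus too, at -4.17 and -5.52, so that the hippocampus was the one bright region. ASMM10P041388 had a fitted difference of 7.88, but it was above background on 1 of the 3 cerebellum scans only, so its size there rests on values near the detection limit. All 16 of these probes kept their calls with the replicate block, with adjusted p of at most 0.000184. With normexp background correction, which raises the dimmest values, the 8 differences in each direction were smaller, at 5.18 to 8.15 and at -5.27 to -9.72.

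**Figure D2:**
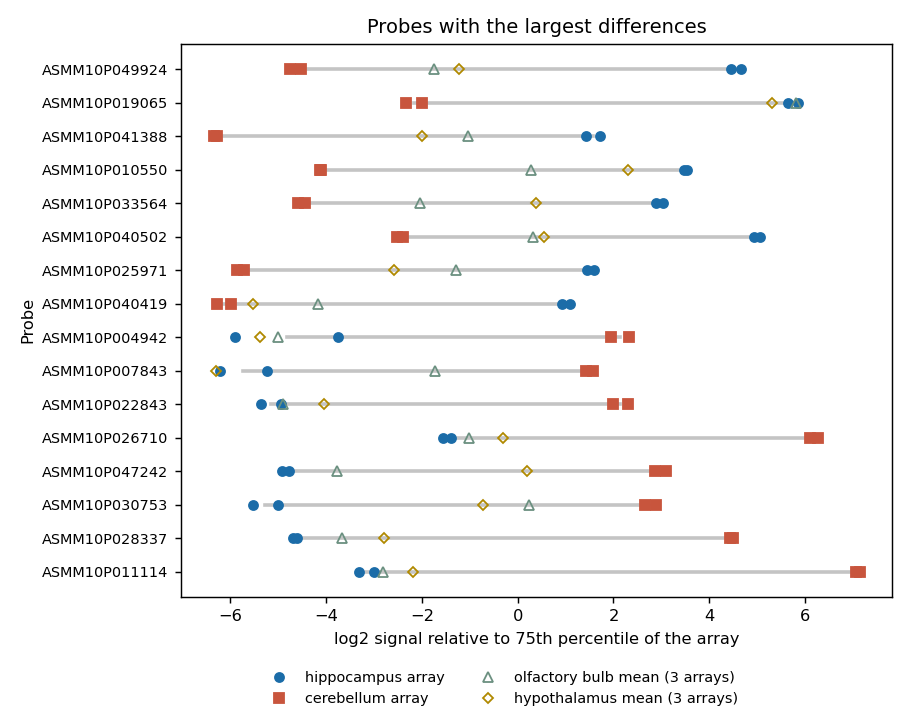
Level of the 16 probes with the largest called differences on each hippocampus array (circles) and each cerebellum array (squares), with the mean of 3 olfactory bulb (triangles) and 3 hypothalamus arrays (diamonds); the x axis is log2 signal relative to the array's 75th percentile and grey bars join the means of both regions. The arrays of a region sit close together except at ASMM10P004942 and ASMM10P007843, and at ASMM10P019065 both other regions sit with the hippocampus.

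Some probes were well above background in one region and not in the other. On the array, 170 probes (0.279%) were well above background on all 3 hippocampus scans and on no cerebellum scan, and 701 (1.15%) on all 3 cerebellum scans and on no hippocampus scan. For these a fold is a bound: the mean of the bright region against the mean, per array, of the higher of the dim probe's own signal and the lowest signal among probes well above background. The bound was at least 2-fold for 137 of the 170 and for 85 of the 701, so that most of the cerebellum set was close to the detection limit. The adjusted p by limma was under 0.05 for 161 of the 170 and for 222 of the 701, against 23.3% of all probes tested. Both sets were chosen by detection on the same scans, so a share above that of all probes is built in and supports no difference. Most of the cerebellum set was thus not shown to differ.

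ASMM10P030234 was at least 323-fold higher in the cerebellum, at 2.65 and 2.52. Its hippocampus arrays read -8.14 and -8.01 and its mean was -8.56 in the olfactory bulb and -8.35 in the hypothalamus. These 3 regions were not well above background on any scan. ASMM10P049108 was at least 216-fold higher in the cerebellum, at 2.13 and 1.88, and ASMM10P007459 at least 101-fold, at 1.09 and 0.72. ASMM10P042498 was at least 137-fold higher in the hippocampus, at 1.03 and 0.74, with means of -0.03 in the olfactory bulb and -2.28 in the hypothalamus. ASMM10P007487 was at least 132-fold higher in the hippocampus, at 0.99 and 0.67, with an olfactory bulb mean of 0.45. ASMM10P052149 was at least 95.6-fold higher in the hippocampus, at 0.42 and 0.31, and lower in the olfactory bulb, at -3.42, and in the hypothalamus, at -1.34.

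Of the called array-design probes with the highest signals, ASMM10P011114 is described above, and the others had smaller differences. ASMM10P029483 was at 7.62 and 7.58 in the hippocampus and 3.98 and 3.72 in the cerebellum, a 13.5-fold difference (3.75, SE 0.13). ASMM10P013094 was at 7.65 and 7.57 against 5.98 and 5.74 (difference 1.75, SE 0.11). Both had means of 6.94 or more in the olfactory bulb and 6.98 or more in the hypothalamus, so the cerebellum was their lowest region. ASMM10P051623 was at 7.71 and 7.73 against 6.74 and 6.59, a difference of 1.06 that fell to 0.74 with quantile normalization and in the authors' value table, under the 2-fold threshold. In the other direction ASMM10P050654 was at 4.84 and 4.67 in the hippocampus and 7.08 and 6.80 in the cerebellum (difference -2.19, SE 0.14). Its mean was 3.92 in the olfactory bulb and 6.50 in the hypothalamus, so the hypothalamus lay near the cerebellum. ASMM10P056192 was at 5.25 and 5.33 against 6.95 and 6.88 (difference -1.62, SE 0.11). Its olfactory bulb mean of 6.79 lay near the cerebellum and its hypothalamus mean of 4.98 below the hippocampus.

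Across all called probes, the olfactory bulb and the hypothalamus placed the difference more often on the cerebellum side. This is a description, since the arrays compared also set the call. The same shares over all probes tested are not given, so the counts are not a trait of the called probes. Of the 2897 probes higher in the hippocampus, the cerebellum was the lowest of the 4 regions for 2536 and the hippocampus the highest for 1546, with both true for 1249 (43.1%). Of the 2881 probes higher in the cerebellum, the cerebellum was the highest region for 2435 and the hippocampus the lowest for 1911, with both true for 1534 (53.2%). The mean of the olfactory bulb and the hypothalamus lay nearer to the hippocampus than to the cerebellum for 2034 (70.2%) of the first set and 1971 (68.4%) of the second.

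Of the 15 genes the files name, 3 passed the adjusted p (20%, against 23.3% of all probes tested), and 1 of them, Actb, also differed by at least 2-fold. Each gene was read by a probe with 20 copies on the array. The genes are mostly ones used as references because they are active in nearly all cells. For 10 of the 15 the arrays of the regions did not overlap, against 54.9% of all probes tested.

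Actb encodes beta-actin, the monomer of the actin filaments that shape dendritic spines. Its level was 4.36 on both hippocampus arrays and 3.30 and 3.26 on the cerebellum arrays. It was 2.11-fold higher in the hippocampus (log2 difference 1.08, SE 0.11, adjusted p = 0.000228 by limma). The cerebellum was its lowest region, with 3.98 in the olfactory bulb and 4.20 in the hypothalamus. The other cytoskeletal gene, Tuba1b, which encodes an alpha-tubulin of microtubules, read 7.67 and 7.54 against 7.37 and 7.19. That difference of 0.33 had an adjusted p of 0.0745 without the block and 0.00235 with it, and it was 0.03 under quantile normalization.

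Tbp and G6pd2 were higher in the cerebellum. Tbp encodes the TATA-binding protein of the transcription initiation machinery, and read 0.22 and -0.07 in the hippocampus and 1.01 and 0.78 in the cerebellum. It was 1.76-fold higher in the cerebellum (difference -0.82, SE 0.15, adjusted p = 0.00555 by limma), but the adjusted p was 0.0762 in a fit of these regions alone. The other nuclear gene, Nono, an RNA-binding protein of paraspeckles, read 1.32 and 1.14 against 1.57 and 1.42 (difference -0.27, adjusted p = 0.169, and 0.00614 with the block). G6pd2 read -0.32 and -0.30 in the hippocampus and 0.55 and 0.47 in the cerebellum, where it was also 1.76-fold higher (difference -0.82, SE 0.09, adjusted p = 0.000438). G6pd2 is a retrotransposed copy of the glucose-6-phosphate dehydrogenase gene G6pdx of the pentose phosphate pathway. Probe sequences were not used here, so signal from the parent gene cannot be told apart from its own.

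Among the other enzymes, Gapdh of glycolysis read 7.04 and 6.88 in the hippocampus and 6.88 and 6.66 in the cerebellum. Its difference of 0.19 had an adjusted p of 0.375, and 0.022 with the block, but turned to -0.09 under quantile normalization. Gusb, the lysosomal beta-glucuronidase, read -1.11 and -1.26 against -0.74 and -0.90, a difference of -0.37 with an adjusted p of 0.0627. It passed with the block, at 0.0013, and under quantile normalization, at 0.0416. Hprt, which salvages purines, read 6.14 and 6.01 against 5.94 and 5.76. Its difference of 0.23 had an adjusted p of 0.204, and 0.0121 with the block, and was 0.01 under quantile normalization. Glycerol kinase, Gk, and the lactate dehydrogenase relative Ldhal6b did not pass either way, with differences of 0.17 (SE 0.26) and 0.02 (SE 0.22). For Ldhal6b the arrays numbered 1 differed by -0.28 and those numbered 2 by 0.31, so the pairs had opposite signs.

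The cell surface genes had small differences. B2m, whose product pairs with class I heavy chains at the cell surface, read 2.90 and 2.79 in the hippocampus and 2.67 and 2.53 in the cerebellum (difference 0.24, adjusted p = 0.165, and 0.00724 with the block). The transferrin receptor gene Tfrc differed by 0.14 (SE 0.11) and did not pass with the block, at 0.0506. Of the protein synthesis and folding genes, ribosomal Rpl13a differed by 0.17 (adjusted p = 0.632, and 0.0324 with the block). The chaperone Hsp90ab1 differed by -0.06 (SE 0.13) and the cyclophilin Ppia by 0.12 (SE 0.10). Ppia turned to -0.17 under quantile normalization. In all, 10 of the 15 genes passed the adjusted p with the block, where 41.4% of all probes did.

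**Figure D3:**
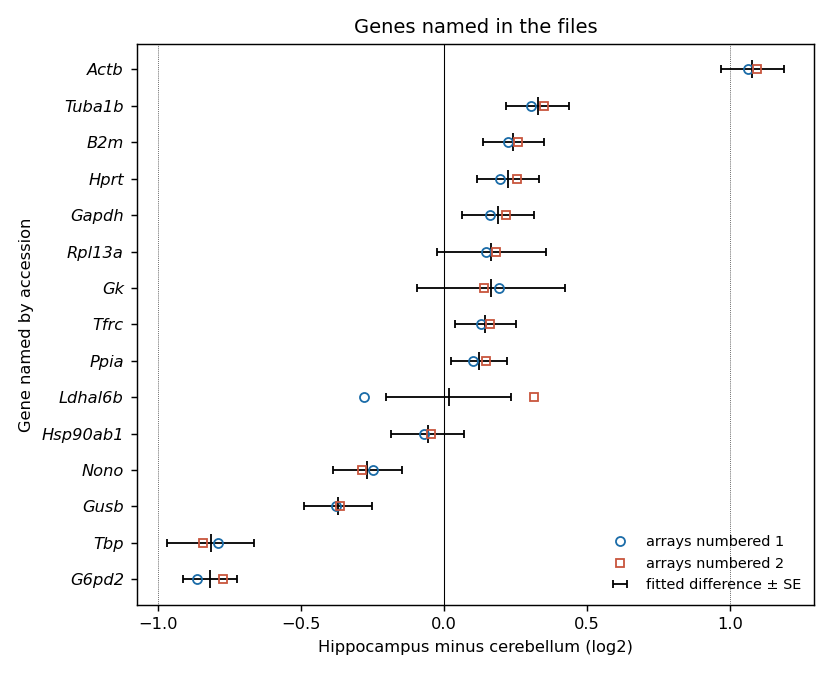
Hippocampus minus cerebellum difference of the 15 genes named in the files (x axis, log2), for the arrays numbered 1 (circles), the arrays numbered 2 (squares) and the limma fit without block (bars, ± SE); dotted lines mark 2-fold. Actb lies past 2-fold in the hippocampus direction, Tbp and G6pd2 lie near -0.82, and Ldhal6b has pairs of opposite sign.

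The array carried 1836 probes with lincRNA names, of which 1432 were tested. Of these 37 (2.58%) were called, 17 higher in the hippocampus and 20 higher in the cerebellum, against 10.2% of all probes tested. By the adjusted p alone 79 (5.52%) passed, against 23.3% of all. The 3 name classes were 1104 human, 649 mouse and 83 mm9 exon probes. Calls were made at 20 of 851 tested probes with human lincRNA names (2.35%), 12 of 504 with mouse lincRNA names (2.38%) and 5 of 77 named for lincRNA exons of the mm9 genome (6.49%). The lincRNA-named probes were dimmer than the rest, with a median level of -3.24 against -1.63 for array-design IDs, and had a larger median SE, 0.334 against 0.197. Within each of 4 bands of equal size by level their share stayed below that of the array-design IDs. It was 2.07% against 9.54% in the dimmest band and 5.71% against 11.3% in the brightest, where 6 of 105 were called. The array's ASMM10UP probes, whose class is not explained in the files, were called at 97 of 790 (12.3%), with 47 higher in the hippocampus and 50 higher in the cerebellum. At least 4-fold calls made up 39 of them (4.94%, against 3.29% of all probes tested).

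**Figure D4:**
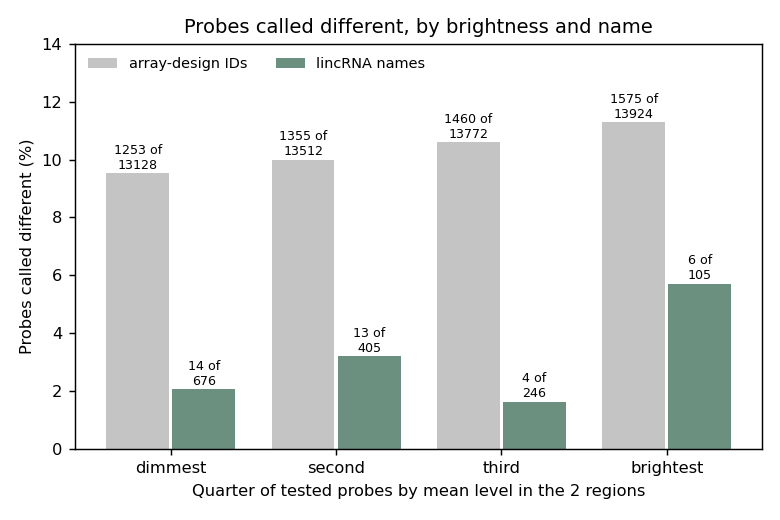
Share of tested probes called different (y axis, %), for array-design IDs (grey) and lincRNA names (green), in 4 bands of equal size by mean level in both regions (x axis); numbers above the bars are called probes of tested probes. The lincRNA-named share lies below the array-design share in every band, from 2.07% against 9.54% in the dimmest to 5.71% against 11.3% in the brightest.

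Among the called lincRNA names, probes above background on all 6 scans made up 12 of the 17 higher in the hippocampus and 15 of the 20 higher in the cerebellum. Differences of at least 4-fold were measured at 0 of these 12 and 7 of these 15. Over all called probes above background on all 6 scans, they were measured at 915 of 2597 and 593 of 2556. The calls at humanlincRNA0931- and mouselincRNA0773+ were made though neither region had a scan above background. Both probes entered the test through another region, so their differences are not measured ones. The probes humanlincRNA2052+ and mouselincRNA0696+ lay above the 75th percentile on every array of both regions. The former read 1.37 and 1.47 in the hippocampus and 3.68 and 3.95 in the cerebellum (difference -2.40, SE 0.20, adjusted p = 6.93e-05 by limma). The latter read 1.19 and 1.44 against 3.60 and 3.79 (difference -2.38, SE 0.17, adjusted p = 2.94e-05). Both had their lowest level in the hypothalamus, at 0.21 and 0.20.

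The largest lincRNA difference above background in both regions was at humanlincRNA1086-, with -2.20 and -1.68 in the hippocampus and 0.69 and 1.13 in the cerebellum (difference -2.85, SE 0.41, adjusted p = 0.00142). The difference at mouselincRNA0538- was as large at -2.85 (SE 0.18), from -4.40 and -4.62 to -1.57 and -1.76. At mouselincRNA1177- it was -2.60, from -4.64 and -4.69 to -1.91 and -2.23, and at humanlincRNA1995+ it was -1.79. The exon probes MM9LINCRNAEXON10627+ and MM9LINCRNAEXON10136+ differed by -2.10 and -1.50. MM9LINCRNAEXON10618+ was above background on all cerebellum scans and on no hippocampus scan, at -5.86 and -5.99 in the cerebellum. It stood at the detection limit there, and no fold is given.

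In the hippocampus direction the largest fitted lincRNA differences were at dim probes. Of these, humanlincRNA1645+ read -5.20 and -4.23 in the hippocampus and was above background on no cerebellum scan, a bound of at least 2.82-fold. The bound was at least 1.72-fold for humanlincRNA1015+, at -5.30 and -5.56. For humanlincRNA1923+ it was at least 2.12-fold, but that probe was above background on 2 of 3 hippocampus scans, at -4.20 and -6.05, and missed the threshold with the block (adjusted p = 0.056). The measured ones were smaller. MM9LINCRNAEXON11569- read -1.38 and -1.27 against -3.08 and -2.72 (difference 1.58, SE 0.23). The mouse probes mouselincRNA0963+, mouselincRNA0188- and mouselincRNA0664- differed by 1.64, 1.28 and 1.22. Of these, mouselincRNA0664- had the closest arrays, at -2.46 and -2.55 against -3.68 and -3.77 (SE 0.12). Normexp background correction took 5 of the named lincRNA probes under the 2-fold threshold, with differences of 0.91 at humanlincRNA1645+, 0.76 at humanlincRNA1015+, 0.78 at humanlincRNA1923+, 0.92 at mouselincRNA0664- and -0.05 at MM9LINCRNAEXON10618+. Leaving out a single array took 4 past an adjusted p of 0.05. These were humanlincRNA1645+ (0.0711 without hippocampus array 2 and 0.0748 without cerebellum array 1), humanlincRNA1923+ (0.116 without hippocampus array 1 and 0.169 without cerebellum array 1), mouselincRNA0963+ (0.0889 and 0.114 without the same arrays) and mouselincRNA0188- (0.0508 to 0.149 without 3 of the 4 arrays). For 521 lincRNA names both strands were tested. In 25 of them 1 strand was called, and in 0 of 521 both were. Of all lincRNA-named probes tested 2.58% were called, so unrelated strands would hardly ever be called together. These counts therefore do not show calls to be specific to a strand.

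Differences were also taken within each pair of same-numbered arrays. Of the probes with a value on all 4 arrays, 2796 reached 2-fold in the hippocampus direction in both pairs and 2705 in the cerebellum direction in both, while 89 were at least 2-fold different in opposite directions. The balance differed between the pairs. In arrays numbered 1, an at least 2-fold difference favoured the hippocampus at 4374 probes and the cerebellum at 3486. In arrays numbered 2 the numbers were 3735 and 5921, so the direction of the imbalance was opposite.

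**Figure D5:**
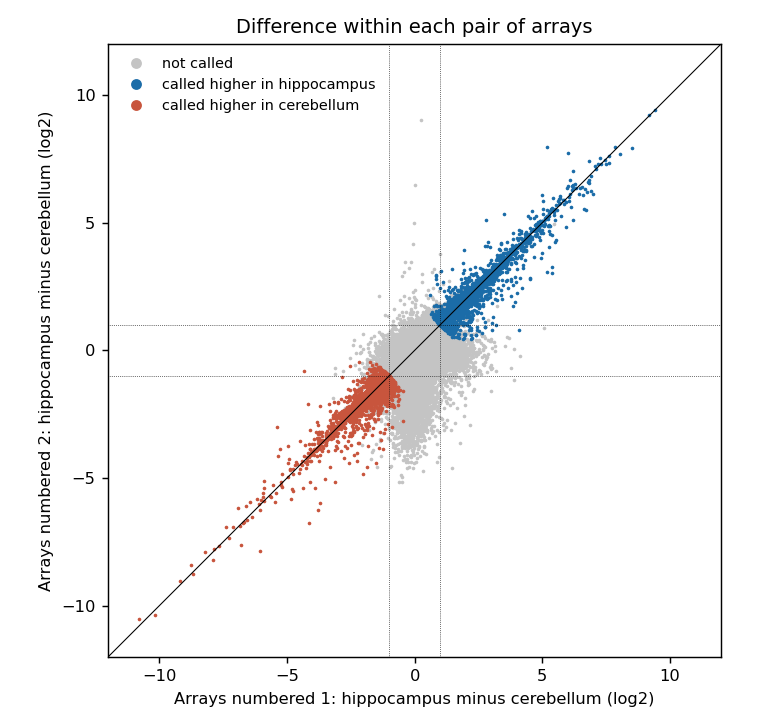
Difference of each tested probe between hippocampus and cerebellum (log2) in the arrays numbered 1 (x axis) and in the arrays numbered 2 (y axis), coloured by call; dotted lines mark 2-fold and the diagonal marks equal differences. Called probes follow the diagonal from about -10 to 9, and a column of uncalled probes extends downwards near 0 on the x axis, where arrays numbered 2 alone were higher in the cerebellum.

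That column of probes lay mostly in 1 area of the printed array. Of 3210 probes that were at least 2-fold higher in the cerebellum in arrays numbered 2 only, 2460 (76.6%) were at least 2-fold lower on hippocampus array 2 than on hippocampus array 1. Of these 2460, 2307 (93.8%) were printed in rows 1 to 144 and columns 1 to 82 of the array's 384 rows and 164 columns, an area with 18.3% of the tested probes. Among dimmer probes of that area, hippocampus array 2 lay below array 1 by a median of -0.63, against -0.06 outside columns 1 to 123 of these rows. In columns 83 to 123 of these rows, dimmer probes of hippocampus array 2 lay below array 1 by a median of -0.46, and those of cerebellum array 2 lay above array 1 by 0.31. There, arrays numbered 1 had 1408 probes at least 2-fold higher in the hippocampus and 244 in the cerebellum, and arrays numbered 2 had 303 and 423. Outside those columns and rows, arrays numbered 1 had 2243 probes at least 2-fold higher in the hippocampus and 2521 in the cerebellum. Arrays numbered 2 had 2825 and 2115 there, so the balance of each pair was the opposite of that over all probes. The share called was 9.86% there (4.99% and 4.87% by direction), against 11.4% in columns 1 to 82 (5.17% and 6.19%) and 10.7% in columns 83 to 123 (6.04% and 4.66%). Hippocampus array 2 also had more spots at the lowest signal the software wrote, 3072, against 1988 to 2082 on the other hippocampus scans and 1657 to 1777 on the cerebellum scans. Of the probes above background in 1 region only, 181 of the 701 cerebellum probes and 36 of the 170 hippocampus probes were printed in columns 1 to 82 of these rows. The part of these areas in the calls made within them was not tested. Of the probes named above, ASMM10P011114, ASMM10P030753, ASMM10P007843, ASMM10P004942, ASMM10P010550, ASMM10P040502, ASMM10P049108, ASMM10P056192, all 3 hippocampus-only probes and 5 of the lincRNA names were printed in columns 1 to 123 of these rows, and all of them kept their calls when tile medians were subtracted. A difference far larger than the median shifts of these areas could hardly lose its call this way, so no conclusion is drawn from it.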

How the data were processed

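Per the labels' protocols, RNA of each dissected region was depleted of ribosomal RNA, amplified with random primers and labelled with Cy3. Agilent Feature Extraction 11.0.1.1 read the spots, per the submitters' processing notes. Intensity per spot comes from these deposited files, and its processed signal had background subtracted, per the file headers. A log2 value table of 60804 probes was also deposited. Its columns for these regions, compared with the scanner values, had slopes of 0.971 to 1.01, the same direction and medians near 8.48, so it was not centred at 0, and the sources used here do not give its normalization.

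Outlier spots (24 to 69 a scan) were dropped, as were 15 negative-named probes, and copies of a probe were averaged. Testing required that every scan of some region showed the probe well above background. The fit used R 4.3.3 and limma 3.58.1 (lmFit, eBayes), with 10 arrays and 6 residual degrees of freedom. It was tested on simulated data. The number of arrays limits the precision.

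Deviations of same-numbered arrays from their region means correlated across probes at r 0.0935 to 0.747 over 13 pairs, and at 0.279 for hippocampus and cerebellum. The lowest was for olfactory bulb and cerebellum arrays numbered 2, a pair outside this comparison. As not every pair exceeded 0.1 and the labels tie no number to an animal, the numbers were not taken as pairing the arrays. The fit with the replicate number as a block is an alternative. Per the file headers, the hippocampus and cerebellum scans of a replicate number shared a scan time, which differed between the numbers. Array 1 thus averages scans made before and after array 2. Any difference between scan times stays in the spread of the fit without the block.

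Named were every probe with an accession, and in each direction the 8 largest called array-design probes detected on 1 or more scans of both regions, the 3 largest called per lincRNA class, the 3 largest bounds among probes detected in 1 region and the 3 brightest called. The regions, gene lists and this rule were chosen with earlier results of these data known. Accessions were named through a RefSeq gene table of another build, so no coordinates are given.

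Alternatives were normexp (offset 50), quantile normalization, the authors' table, other filters, the block, a variance trend, these regions alone, all 12 scans, replicate 1 alone, leaving out each array and, chosen after seeing the data, leaving out a printed area or subtracting the medians of 128 tiles.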

Additional observations from a re-analysis of the deposited data

Results flagged for a closer look

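Among 15 probes named as negative by the array, which were left out of all comparisons, 2 were well above background on all 6 hippocampus and cerebellum scans. The processed signal of MM9NEGATIVE016 ran from 48.7 to 111 intensity units over the 6 scans, with 48.7 to 57.4 in the hippocampus and 102 to 111 in the cerebellum. MM9NEGATIVE017 ran from 105 to 185, with 105 to 116 in the hippocampus and 154 to 185 in the cerebellum. Both drew attention because a probe named as negative gave a signal, and both were brighter on every cerebellum scan than on any hippocampus scan. In these signals, which are not scaled to the 75th percentile, the same held for 11 of the 15 negative-named probes. The 75th percentile itself was 1427 to 1614 on the cerebellum scans and 1188 to 1285 on the hippocampus scans. The share of all probes with this order is not given, so the count is not a trait of the negative-named probes.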

How the results depend on the processing

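The counts of probes called higher in the hippocampus (2897) and in the cerebellum (2881) stayed within 1.5 times under every alternative run. They were 2291 and 2004 with normexp, 2949 and 2855 with quantile normalization, 2967 and 2862 in the authors' table, and 2722 and 2680 with these regions alone. Leaving out 1 array gave 2725 to 3058 and 2341 to 3528, and moved the share in the hippocampus direction from 50.1% to between 43.6% and 56.1%. A region left with 1 array is assumed to vary like the others, and leaving out replicate 1 also leaves out replicate 3. Without the printed area (rows 1 to 144, columns 1 to 123) the counts were 2054 and 2004 among fewer probes, and with tile medians subtracted 3171 and 2789. The replicate block gave 3179 and 3137. By the adjusted p alone 13167 probes passed, against 23438 with the block, 19992 with all 12 scans as separate arrays and 6280 with these regions alone. The 37 lincRNA-named calls became 22 with normexp and 58 with all 12 scans, 50 with the block, and 30 to 38 without 1 array. Signs turned at 5 genes: Ppia to -0.17 and Gapdh to -0.093 with quantile normalization and Ldhal6b to -0.082 with all 12 scans. Leaving out 1 array gave -0.0039 to 0.336 at Rpl13a, -0.292 to 0.327 at Ldhal6b and -0.161 to 0.047 at Hsp90ab1. None of these 5 was past the threshold without the block. The cause was not tested. The authors' table does not cover the 15 genes, so that alternative was not run for them. Dim probes limit the folds: 31 calls higher in the hippocampus and 37 higher in the cerebellum had the other region at the lowest written signal on all 3 scans, where values have no order.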

Other observations

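Calls were also counted at neighbouring IDs of the array design. Of 2680 called probes higher in the hippocampus whose next ID was tested, 429 (16%) had the next ID called in the same direction and 94 (3.51%) in the opposite one, against 5.12% of all probes called in that direction. Of 2676 called probes higher in the cerebellum, 340 (12.7%) had the next ID called in the same direction and 118 (4.41%) in the opposite one, against 5.09%.

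Some probes, chosen after their values were seen, were bright on hippocampus array 2 alone. ASMM10P024154 read 6.68 there and -3.16 on hippocampus array 1, against -3.41 and -2.34 in the cerebellum (adjusted p = 0.268 by limma). ASMM10P035541 read 1.14 and -4.83 on the same arrays, against -4.83 and -5.33 in the cerebellum (adjusted p = 0.196).

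The array reads 2 transcripts near both ends. For Pgk1, a glycolytic kinase, the 3′ minus 5′ difference on the log2 scale was 7.05 and 7.30 in the hippocampus and 7.45 and 7.67 in the cerebellum. For Gapdh it was 1.26 and 1.06 in the hippocampus and 1.26 and 1.09 in the cerebellum, so the regions overlapped for Gapdh but not for Pgk1. The arrays of the regions did not overlap at 54.9% of all probes tested, so a gap at 1 of 2 transcripts is nothing unusual.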
